A study of Mus musculus with 24 samples.

Results

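Fat pads rich in macrophage transcripts were compared with fat pads poor in them. Of 24 epididymal white adipose tissue samples, 1 per mouse, the 8 with the highest and the 8 with the lowest mean level of macrophage marker transcripts were selected on those values, so that 16 of 24 arrays form the comparison and 8 lie between. The ranking used the log2 values of the authors' deposited table for Adgre1 (a surface antigen of mature macrophages), Tyrobp and Fcer1g (signalling adaptors of activating immune receptors), Ctss (the protease cathepsin S) and Lgals3 (the lectin galectin-3). The remaining marker of the rule, Cd68, could not be tied to a probe with the name table used here, so the mean is over 5 markers of 6. All mice were individually housed C57BL/6JRcc males of 28 or 29 weeks. They had eaten a diet with 40% of its energy from fat, 19% from protein and 41% from carbohydrate, with little but enough tryptophan (0.115%). They were killed 4 hours into a refeeding meal of 1.8 g that followed a restricted night ration of 0.8 g. For 18 weeks 12 mice received 30 mg nicotinamide riboside (NR, a precursor of NAD related to vitamin B3) per kg of diet (Ctrl NR), and 12 received 0 mg (No NR). Each array carried the RNA of 1 mouse in Cy5 and, in Cy3, a reference pool that all arrays shared and that also held other diets and 4 female samples.

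Macrophages are among the main immune cells of white fat, and they gather around fat cells as a depot enlarges. Resident macrophages with scavenger receptors sit along vessels in lean fat, whereas macrophages that take up lipid from dying fat cells carry Trem2, Cd9 and Gpnmb and enlarge their lysosomes. A whole fat pad holds fat cells, vessels, stroma and immune cells, so its RNA mixes them. The RNA input was the same for all mice (200 ng), so a value is relative to the other RNA of the pad. Fewer cells of a type, less RNA per cell and more RNA from other cells cannot be told apart in such data.

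The arrays were set apart by expression, not by treatment. A p-value here therefore measures how a gene went with the marker ranking over mice, and for myeloid genes the direction is in part built in by the choice of arrays. The marker genes themselves were not tested. Unless stated otherwise, values are loess-normalised log2 ratios of a mouse over the reference pool, given as the lowest, median and highest of 8 fat pads per class, and differences are macrophage-rich minus macrophage-poor with their standard error (SE). No level of a gene is set against that of another.

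The marker mean went from 14.31 in the first fat pad to 10.71 in the last. It averaged 13.96 ± 0.22 (SD, n = 8) in the macrophage-rich class, 13.15 ± 0.39 in the 8 fat pads between and 11.59 ± 0.55 in the macrophage-poor class. Lgals3 ranged from 15.75 to 16.50 in the rich and from 12.46 to 14.28 in the poor class, and Adgre1 from 11.69 to 12.58 against 8.77 to 10.43. All these values chose the classes and are a description. At the upper limit, the last rich fat pad stood at 13.68 and the next at 13.51, and at the lower limit, the last fat pad between stood at 12.41 and the first poor one at 12.27. The limits therefore divide a continuous series of values. Leaving out any 1 of the 5 markers or ranking by the log2 ratios gave the same 8 rich and the same 8 poor fat pads. So did adding 1 further probe to the mean, an alternative chosen after seeing the data.

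**Figure D1:**
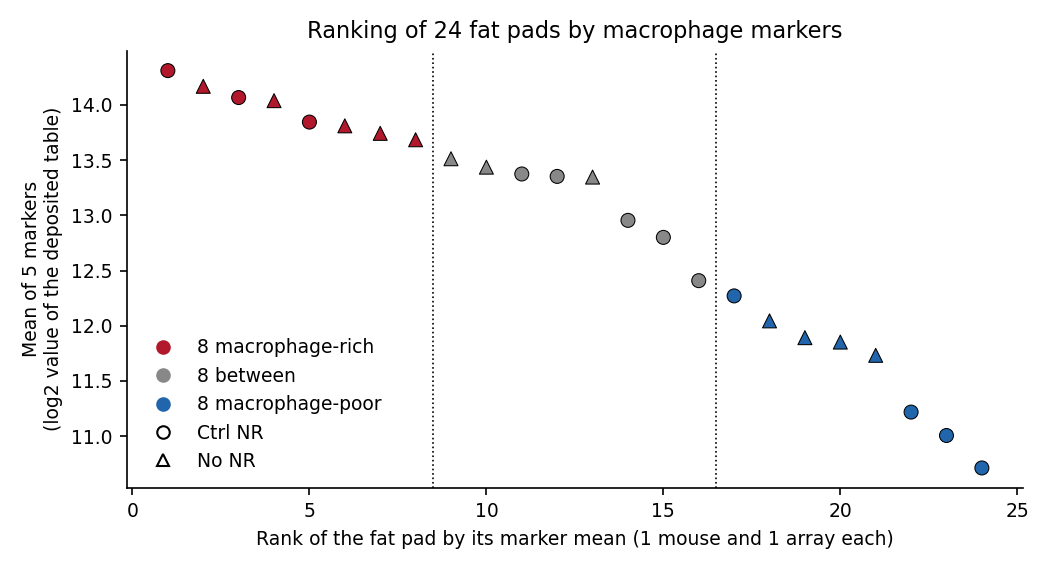
The vertical axis gives the mean log2 value of 5 macrophage markers, and the horizontal axis the rank of the 24 fat pads, each 1 mouse on 1 array. Colour marks the class, shape the diet and dotted lines the class limits, and the mean goes from 14.31 to 10.71 with no large step at either limit.

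Both diets occurred in both classes. The rich class held 3 Ctrl NR and 5 No NR mice, and the poor class 4 of each (Fisher's exact test, two-sided, p = 1). The 16 arrays lay on 5 slides, with 1, 1, 2, 2 and 2 rich and 2, 0, 1, 3 and 2 poor arrays. The share of spots well above background in Cy5 lay between 39.0% and 49.7% in the rich and between 34.5% and 50.7% in the poor class, and none of 8 array measures passed (exact permutation test over 12870 arrangements, two-sided, lowest p = 0.507, adjusted p = 1). In the Cy3 channel, which held the same pool everywhere, limma called 15 of 21046 features (0.0713%). These Cy3 signals were centred on their median per array, without loess, so this count is not comparable with those from loess ratios. The number of arrays limits the precision, and the median SE of a difference was 0.0976.

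The classes differed widely. Among genes whose classes did not overlap and whose probes had 1 sign, the largest differences upward in macrophage-rich fat pads were those of Gpnmb, a lysosomal glycoprotein (9.55-fold), Rnf128, a ubiquitin ligase (9.30-fold), Trem2, a lipid-sensing receptor (9.29-fold), and Atp6v0d2, a subunit of the lysosomal proton pump (8.41-fold). With loess, most of the measured cell cycle, chemokine, MHC class II and collagen genes were higher as well. In the same order, median centring over all spots in place of loess left 29 of 30, 15 of 33, 6 of 12 and 9 of 37 higher. The medians of these lists were larger there than with loess. By the same rule the largest differences downward were those of Cyp2e1, a cytochrome P450 (0.0906-fold), Cfd, which encodes adipsin (0.185-fold), Gsta3, a glutathione transferase (0.262-fold), Thrsp, an activator of lipogenesis (0.263-fold), and Adrb3, the adrenergic receptor that starts lipolysis (0.272-fold). With loess, most measured genes of fat cell identity and of fatty acid and triglyceride synthesis were lower. Median centring over all spots left 2 of 31, 0 of 20 and 0 of 16 lower. Of the interferon-stimulated, T cell and B cell lists at most 1 gene per direction passed, and genes of resident-type macrophages went both ways.

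Of 21046 features tested with limma, 4549 passed at a Benjamini-Hochberg adjusted p under 0.05 (21.6%), 2715 higher (12.9%) and 1834 lower (8.71%) in the rich class. For 1012 features (4.81%) every rich fat pad lay above every poor one, and for 357 (1.7%) every rich one lay below, 6.5% together. These shares include 8037 unnamed probes, whereas the lists below hold named genes only. Of the 13009 named genes 2053 were higher and 1406 lower, and 832 and 292 were so without overlap. Called differences over 1 on the log2 scale were more frequent upward, with 419 features against 56, and over 2 there were 35 against 2. The first principal component held 32.3% of the variance and had r = 0.984 with the marker mean over the 24 fat pads, a description, since genes that follow the markers enter it.

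The balance of higher and lower calls rested on the scaling. Higher calls were 59.7% of all calls with loess, 46.0% with the authors' deposited values and 48.9% with the processed signals of the scanner files. Median centring over all spots, in place of loess, moved the median difference of all measured features from 0.01 to 0.29 and left 1040 higher and 11 lower calls. Centring on the measured features, an alternative chosen after seeing the data, gave 1871 higher and 1185 lower calls. Lower calls of the lists that follow were nearly all lost under median centring over all spots, and many higher calls were lost too. The higher calls were not lost through smaller differences. The median of the collagen list went from 0.419 with loess to 0.943, and that of the complement list from 0.408 to 0.981. Mrc1 (1.13, limma adjusted p = 0.0976) and Pdgfra (1.1, limma adjusted p = 0.0921) lost their calls at larger differences than with loess. Such counts are given beside many of the lists they bear on, and list medians are also given relative to the median of all features where that changes their sign.

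Rnf128 encodes GRAIL, a ubiquitin ligase known from T cells. It stood at -0.11, 0.32 and 1.09 in the rich class and at -3.90, -2.75 and -2.17 in the poor class. The classes lay more than 2 log2 units apart at their nearest fat pads, and the difference was 3.22 (SE 0.224, 9.30-fold, limma adjusted p = 1.29e-09). Gpnmb, a glycoprotein of lysosomes and the macrophage surface, gave 0.58, 0.75 and 1.43 against -3.82, -2.35 and -1.45, a difference of 3.26 (SE 0.247, limma adjusted p = 3.55e-09). Trem2, the lipid-sensing receptor that signals through Tyrobp, gave 0.16, 0.63 and 1.09 against -3.87, -2.38 and -1.76. Its difference was 3.21 (SE 0.228, limma adjusted p = 1.51e-09). Neither gene overlapped between the classes, and the 3 fat pads with the lowest marker means also had the 3 lowest values of Gpnmb and Trem2.

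At the other end stood Cyp2e1, a cytochrome P450 of fat cells and liver. Its log2 ratios were -2.995, -2.62 and -2.44 in the rich class and 0.30, 0.76 and 1.53 in the poor class. No other gene differed as much on its brightest probe, with a difference of -3.46 (SE 0.142, limma adjusted p = 1.53e-12), and its second probe gave -3.53. Cfd, the serine protease adipsin that fat cells secrete and that serves the alternative complement pathway, gave -1.69, -1.32 and -0.93 against 0.46, 1.05 and 1.63 (7 poor fat pads, since the spot of Ctrl NR 115 was an outlier). Its difference was -2.44 (SE 0.157, limma adjusted p = 9.45e-10). Gsta3, a glutathione transferase, gave -1.73, -1.23 and -0.82 against -0.06, 0.61 and 1.57, a difference of -1.93 (SE 0.178, limma adjusted p = 4.33e-08). For all 3 genes the classes stood apart.

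The promoters of these 6 genes are shown because they stand at the ends of the ranking by difference. Each stretch is the 250 bases before the start site, from RefSeq (GRCm38.p6), 5′ to 3′ on the strand of the gene, which is the plus strand for all 6. They lie at chr6:49036268-49036517 for Gpnmb, chrX:139610370-139610619 for Rnf128 and chr17:48346151-48346400 for Trem2, and at chr7:140763569-140763818 for Cyp2e1, chr10:79890603-79890852 for Cfd and chr1:21240335-21240584 for Gsta3. Capitals mark matches, on either strand, to GAGGAA (the core bound by PU.1, the factor that sets up myeloid cells), TCANGTG (the box of MITF and TFE factors, which drive lysosome genes) or TTNNGCAA (a C/EBP site).
Gpnmb: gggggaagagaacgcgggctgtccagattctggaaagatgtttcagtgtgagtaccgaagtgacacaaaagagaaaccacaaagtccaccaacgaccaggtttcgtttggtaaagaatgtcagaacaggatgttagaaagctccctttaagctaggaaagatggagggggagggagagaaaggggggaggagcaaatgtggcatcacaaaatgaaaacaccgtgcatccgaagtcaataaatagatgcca
Rnf128: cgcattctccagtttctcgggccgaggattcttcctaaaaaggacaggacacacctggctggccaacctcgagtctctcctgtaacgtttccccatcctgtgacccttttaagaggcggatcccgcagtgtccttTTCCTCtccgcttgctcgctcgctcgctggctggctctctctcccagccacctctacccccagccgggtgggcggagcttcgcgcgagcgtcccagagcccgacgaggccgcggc
Trem2: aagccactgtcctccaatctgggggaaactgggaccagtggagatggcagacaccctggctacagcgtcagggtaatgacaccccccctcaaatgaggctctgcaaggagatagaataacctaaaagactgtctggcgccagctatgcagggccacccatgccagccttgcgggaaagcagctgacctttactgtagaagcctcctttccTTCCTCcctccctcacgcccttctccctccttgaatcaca
Cyp2e1: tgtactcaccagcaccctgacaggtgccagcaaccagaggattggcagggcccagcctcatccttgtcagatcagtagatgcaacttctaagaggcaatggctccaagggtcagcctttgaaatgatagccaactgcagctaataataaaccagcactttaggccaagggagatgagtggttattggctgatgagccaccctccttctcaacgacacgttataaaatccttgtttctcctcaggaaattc
Cfd: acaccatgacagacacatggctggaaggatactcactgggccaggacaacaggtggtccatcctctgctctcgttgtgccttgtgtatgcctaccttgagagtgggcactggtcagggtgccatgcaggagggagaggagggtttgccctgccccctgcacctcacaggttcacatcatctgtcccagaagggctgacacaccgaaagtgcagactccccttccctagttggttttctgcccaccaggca
Gsta3: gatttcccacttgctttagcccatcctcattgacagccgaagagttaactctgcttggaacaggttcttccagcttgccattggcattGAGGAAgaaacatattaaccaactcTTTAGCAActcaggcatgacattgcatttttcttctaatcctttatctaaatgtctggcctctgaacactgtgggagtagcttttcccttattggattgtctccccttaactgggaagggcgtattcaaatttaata
Rnf128 and Trem2 held 1 GAGGAA match each, both read on the minus strand, and Gsta3 held 1 GAGGAA and 1 TTNNGCAA match. The windows of Gpnmb, Cyp2e1 and Cfd held none of the 3 motifs. GAGGAA occurred in 23.1% of 27025 promoters of this length and in 22.7% of the 10335 that belong to measured genes. It occurred in 27.5% of 658 promoters of genes higher without overlap and in 19.7% of 239 of genes lower without overlap. TCANGTG occurred in 12.2% of all promoters, in 10.9% of those of measured genes, in 13.2% of those of higher and in 9.62% of those of lower genes. TTNNGCAA occurred, in the same order, in 9.55%, 7.77%, 8.66% and 7.11%. A match is a description of letters, matches of different motifs may overlap, and these shares were not tested.

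**Figure D2:**
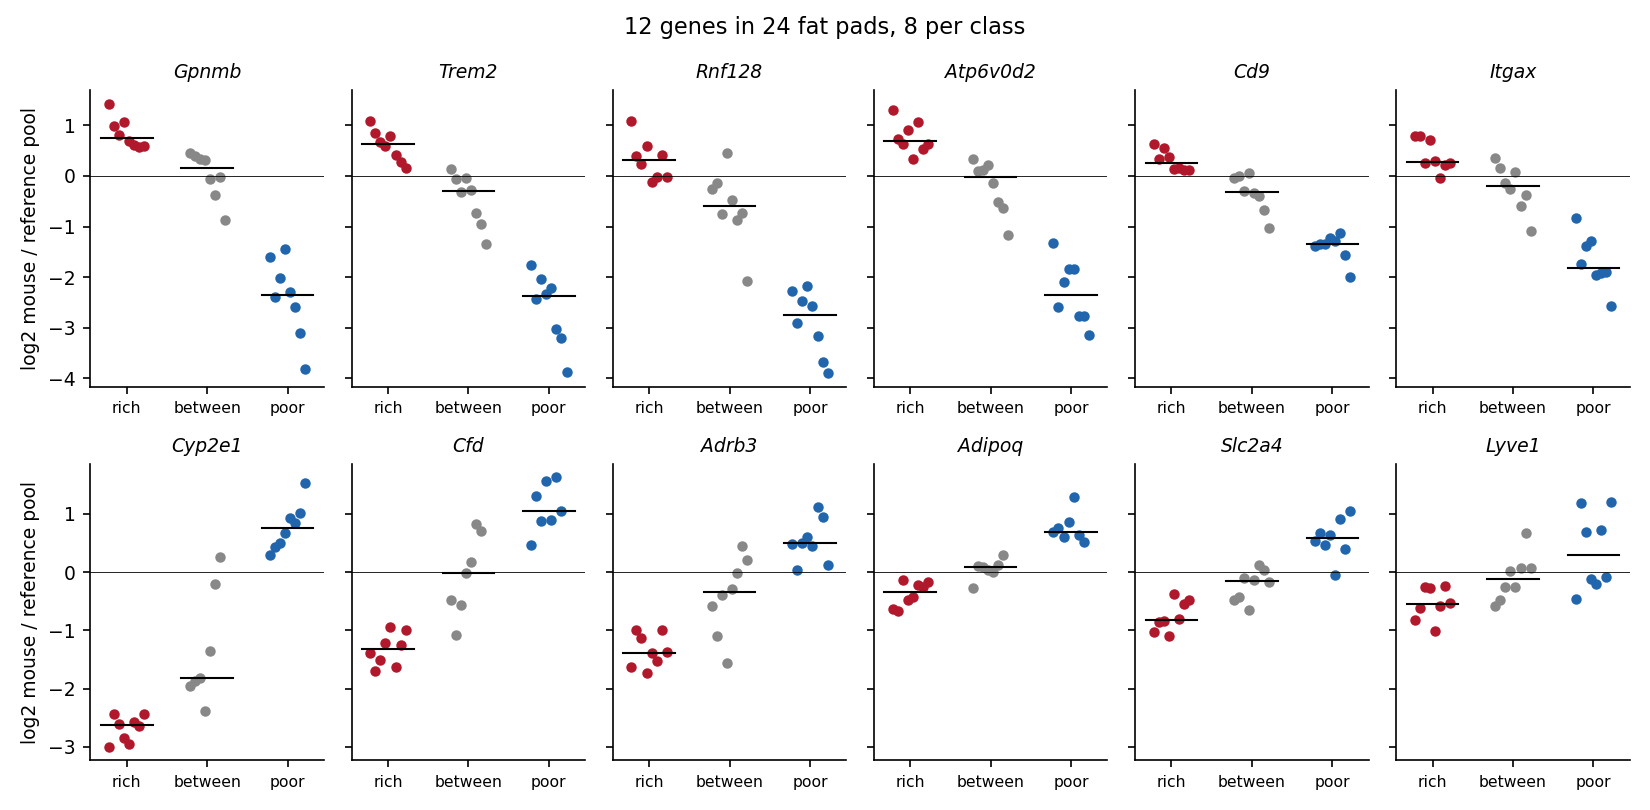
Log2 ratios of a mouse over the reference pool for 12 genes, with 1 point per fat pad in order of rank within each class and a line at the median of the class (8 rich, 8 between, 8 poor, less spots left out as outliers). The rich and poor classes do not overlap for any gene shown except Lyve1.

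Genes shared by macrophages and other myeloid cells were higher almost without exception. Of 39 measured, 35 passed with higher values and 0 with lower ones, with a median difference of 1.30 against 0.01 for all features. The mean of the list lay between 0.12 and 0.51 in the rich and between -1.11 and -0.62 in the poor class. Ms4a7, a membrane protein of macrophages, showed the largest difference (2.34, SE 0.176, limma adjusted p = 3.14e-09), followed by Lcp1, the actin bundler L-plastin (2.17, SE 0.161). Lyz2, lysozyme, differed by 1.35 (SE 0.152), and Spi1, which encodes PU.1, by 0.67 (SE 0.105, limma adjusted p = 5.43e-05). Spi1 was well above background on 8 rich and 2 poor arrays. Its difference ranged from 0.33 to 2.36 over other settings, and it did not pass when centred on the measured features (0.33, limma adjusted p = 0.212). The 4 members that did not pass, named after their values were seen, were Itgam (-0.05), Mertk (0.08), Cd33 (0.15) and Lst1 (0.17). Itgam, the integrin chain CD11b, gave no clear answer, since its brightest probe differed by -0.05 (SE 0.102, limma adjusted p = 0.785) and its other probe by 0.81.

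Genes of lipid-associated macrophages had a median difference of 1.36, with 19 of 26 members higher and 2 lower. Atp6v0d2, a subunit of the proton pump that acidifies lysosomes, gave 0.35, 0.69 and 1.31 in the rich and -3.15, -2.35 and -1.32 in the poor class (difference 3.07, SE 0.208, limma adjusted p = 9.90e-10). Nceh1, which hydrolyses cholesteryl ester, differed by 2.60 (SE 0.177) and Slc37a2, a sugar phosphate transporter, by 2.49 (SE 0.147). None of the 3 overlapped between the classes. Cd9, a tetraspanin of these cells, gave 0.12, 0.25 and 0.63 against -2.002, -1.34 and -1.13, a difference of 1.72 (SE 0.113, limma adjusted p = 7.60e-10). Itgax, the integrin chain CD11c, gave -0.03, 0.27 and 0.79 against -2.57, -1.82 and -0.83 (difference 2.11, SE 0.185). Spp1, the secreted matrix protein osteopontin, differed by 1.36 (SE 0.144, limma adjusted p = 3.00e-07) and was well above background on 8 rich and 6 poor arrays. The 2 members with lower values, named after their values were seen, were Acp5 (-0.57) and Apoe (-0.45), and under median centring over all spots 0 members of the list were lower. Of the 26 members 5 did not pass, and 5 had a negative difference. Among those that did not pass, named after their values were seen, were Cd36 (0.05), Fabp5 (0.08), Lgals1 (-0.20) and Anxa2 (-0.02).

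Genes of resident-type macrophages split into 9 higher and 10 lower among 22 measured, with a median difference of 0.04. Among the higher were Folr2 (1.05), the complement receptor Vsig4 (1.004), Stab1 (0.80), Pf4 (0.77), Mrc1 (0.62), Selenop (0.45), Arg1 (0.45) and Clec10a (0.36). Lower were the lectins Cd209d (-1.13) and Cd209f (-1.09), the hyaluronan receptor Lyve1 (-0.91), Retnla (-0.62), Fcna (-0.55), F13a1 (-0.53), Ccl24 (-0.49), Cbr2 (-0.48), Cd163 (-0.29) and Gas6 (-0.22). Maf (0.02), Mgl2 (0.07) and Igf1 (0.08) did not pass. The mean of the list was -0.15 ± 0.07 (SD, n = 8) in the rich and -0.21 ± 0.14 in the poor class, so the members went apart while their mean hardly moved. Under median centring over all spots 5 members were higher and 0 lower, and centred on the measured features 8 and 6.

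Cd209d, a C-type lectin, gave -1.60, -0.97 and -0.52 in the rich class and -0.18, 0.11 and 0.39 in the poor class, with no overlap (SE 0.144, limma adjusted p = 3.97e-06). Lyve1, which also marks lymphatic vessels, gave -1.01, -0.55 and -0.24 against -0.46, 0.30 and 1.21 (SE 0.215, limma adjusted p = 0.00353), and its classes overlapped. Mrc1, the mannose receptor CD206, gave -0.26, 0.25 and 0.49 against -0.60, -0.45 and 0.05 (SE 0.109, limma adjusted p = 0.000198), with overlap as well. Cd163, the haemoglobin scavenger receptor, was the least firm of these 4. Its classes overlapped, with -0.39, -0.14 and 0.23 against -0.01, 0.13 and 0.59 (SE 0.0991, limma adjusted p = 0.0394), and it was well above background on 4 rich and 7 poor arrays. It lost its call under 16 of 39 other settings, 9 of them omissions of 1 fat pad, with differences from -0.35 to -0.19 there. Of the settings, 7 were rankings that returned the same classes.

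Monocyte genes were higher for 8 of 11 members and lower for 0 (median 0.47), and 3 were higher under median centring over all spots and 5 centred on the measured features. Hp, haptoglobin, differed by 0.77 (SE 0.229, limma adjusted p = 0.0188) and Ccr2, the receptor that brings monocytes from blood, by 0.71 (SE 0.130, limma adjusted p = 0.000295). Both overlapped between the classes, and which cells made them cannot be read from whole tissue. Hp did not pass with slide as a fixed block (0.65, limma adjusted p = 0.0823), with 6 against 6 fat pads (adjusted p = 0.0698), or within Ctrl NR (adjusted p = 0.0779) or No NR mice (adjusted p = 0.182). Among dendritic cell genes 5 of 14 were higher and 1 lower (median 0.21). Cd83, found on antigen-presenting cells, differed by 1.98 (SE 0.131) and Sirpb1a, a myeloid signal-regulatory protein with close paralogs that a probe may not tell apart, by 1.69 (SE 0.131). The lower member, named after its value was seen, was Cd209a (-0.50). Of 12 measured MHC class II genes, whose products present peptides to CD4 T cells, 8 were higher and 0 lower (median 0.73). With median centring over all spots 6 were higher, and centred on the measured features 7. H2-Aa gave -0.08, 0.17 and 0.59 in the rich and -1.64, -1.03 and -0.41 in the poor class (difference 1.23, SE 0.167, limma adjusted p = 9.13e-06), and H2-DMb1 differed by 1.28 (SE 0.168).

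Lysosomal genes were higher for 27 of 39 members and lower for 0, with a median difference of 0.51. With median centring over all spots 19 were higher, and centred on the measured features 26. Ctsk, the collagen-cleaving cathepsin K, gave 0.10, 0.55 and 1.22 against -2.19, -1.59 and -1.22, without overlap (difference 2.29, SE 0.161, limma adjusted p = 1.38e-09). Lgmn, the protease legumain, differed by 2.02 (SE 0.162). Of the factors that switch lysosome genes on, Mitf (1.26) and Tfeb (0.50) passed and Tfe3 (0.27) did not, and they were named after their values were seen. Subunits of the vacuolar proton pump were higher for 11 of 17 members and lower for 0 (median 0.45), of which 7 were higher with median centring over all spots. Beside Atp6v0d2 the largest difference was that of Tcirg1 (1.42, SE 0.146), the a3 subunit known from osteoclasts.

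Chemokine and cytokine genes were higher for 20 of 33 members and lower for 1 (median 0.56). With median centring over all spots 15 were higher and 0 lower, and centred on the measured features 16 and 0. Ccl9 (1.73, SE 0.149) showed the largest difference. Ccl2, which draws monocytes through Ccr2, gave 0.20, 0.52 and 1.01 in the rich and -1.21, -0.77 and -0.28 in the poor class, without overlap (difference 1.34, SE 0.126, limma adjusted p = 5.84e-08). Saa3, an acute-phase protein of fat, differed by 1.39 (SE 0.240). Tnf differed by 0.38 (SE 0.0712, limma adjusted p = 0.000409), was well above background on 8 rich and 3 poor arrays, and stood at -0.0193 when centred on the measured features. Csf1, the growth factor of macrophages, stood at 0.01 (SE 0.138, 95% interval -0.27 to 0.30, limma adjusted p = 0.964). The lower member, named after its value was seen, was Cxcl12 (-0.37). Il1b, Il6 and Il10 did not pass the filter on dim probes.

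Of 21 complement genes 11 were higher and 3 lower (median 0.41), and with median centring over all spots 6 were higher. The C1q chains, which macrophages make, differed by 1.31 (C1qa), 1.69 (C1qb) and 1.14 (C1qc), and the receptors C3ar1 and C5ar1 by 1.66 and 1.39. Lower were Cfd (-2.44), C2 (-0.56) and C6 (-0.55). Apart from Cfd these members were named after their values were seen. The median of the interferon-stimulated genes, 0.02, stood at that of all features. Of 22 members 1 was higher and 0 lower, where 12.9% of all features were higher and 8.71% lower. The higher one was Oas1a (1.35, SE 0.151, limma adjusted p = 6.83e-07), with no overlap between the classes. Oasl2, of the same family, stood at 0.37 (SE 0.150, limma adjusted p = 0.0811).

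Cell cycle genes were higher nearly throughout, with 29 of 30 measured members higher and 0 lower and a median difference of 1.02. Centred on the measured features 19 were higher. With loess every rich fat pad lay above every poor one for 24 of the 30, against 4.81% of all features and 832 of 13009 named genes. Mki67, the antigen of dividing cells, gave -0.05, 0.29 and 0.83 in the rich and -1.65, -1.13 and -0.85 in the poor class (difference 1.62, SE 0.137, limma adjusted p = 1.29e-08). Birc5, survivin, differed by 2.08 (SE 0.147) with its brightest probe and by 0.70 and 0.87 with its others. The member that did not pass, named after its value was seen, was Tyms (0.13). Which cells divide cannot be read from whole tissue.

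Genes of other blood cells were counted as well. Of 16 T cell genes only Il7r was higher and only Gata3 (-0.32, named after its value was seen) lower, and the median was 0.16. Il7r, the interleukin-7 receptor, differed by 2.21 (SE 0.161, limma adjusted p = 2.07e-09), whereas the T cell receptor chains Cd3d, Cd3e and Cd3g, named after their values were seen, stood at 0.16, 0.16 and 0.09 and did not pass. B and plasma cell genes gave 0 higher and 1 lower of 12 (Xbp1, -0.37, SE 0.0892, but 0.282 under median centring over all spots), and NK cell genes 2 higher and 0 lower of 8 (Klra8, 0.38, and Nkg7, 0.33). With the authors' deposited values and with either median centring 0 NK cell genes were higher. Nkg7 lost its call under 19 of 40 other settings, 9 of them omissions of 1 fat pad, and Klra8 under 10 of 39, 4 of them such omissions, and neither passed with slide as a fixed block. Mast cell genes were higher for 6 of 8 members and lower for 0 (median 0.52), and 3 were higher with either median centring. Cpa3, the carboxypeptidase of mast cell granules, gave -0.55, 0.26 and 1.38 in the rich and -1.53, -0.98 and -0.55 in the poor class (difference 1.42, SE 0.216, limma adjusted p = 3.95e-05), and Mcpt4, a mast cell protease, differed by 1.31 (SE 0.190). Both overlapped slightly between the classes. Of 15 neutrophil and eosinophil genes on the array only 6 were measured. Of these 3 were higher and 0 lower, among them S100a8 (1.19, SE 0.210) and Il1rl1 (0.79, SE 0.0903), and 2 were higher with either median centring. Siglecf, Epx and Prg2 were not measured, and the members named need not come from these cells alone.

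**Figure D3:**
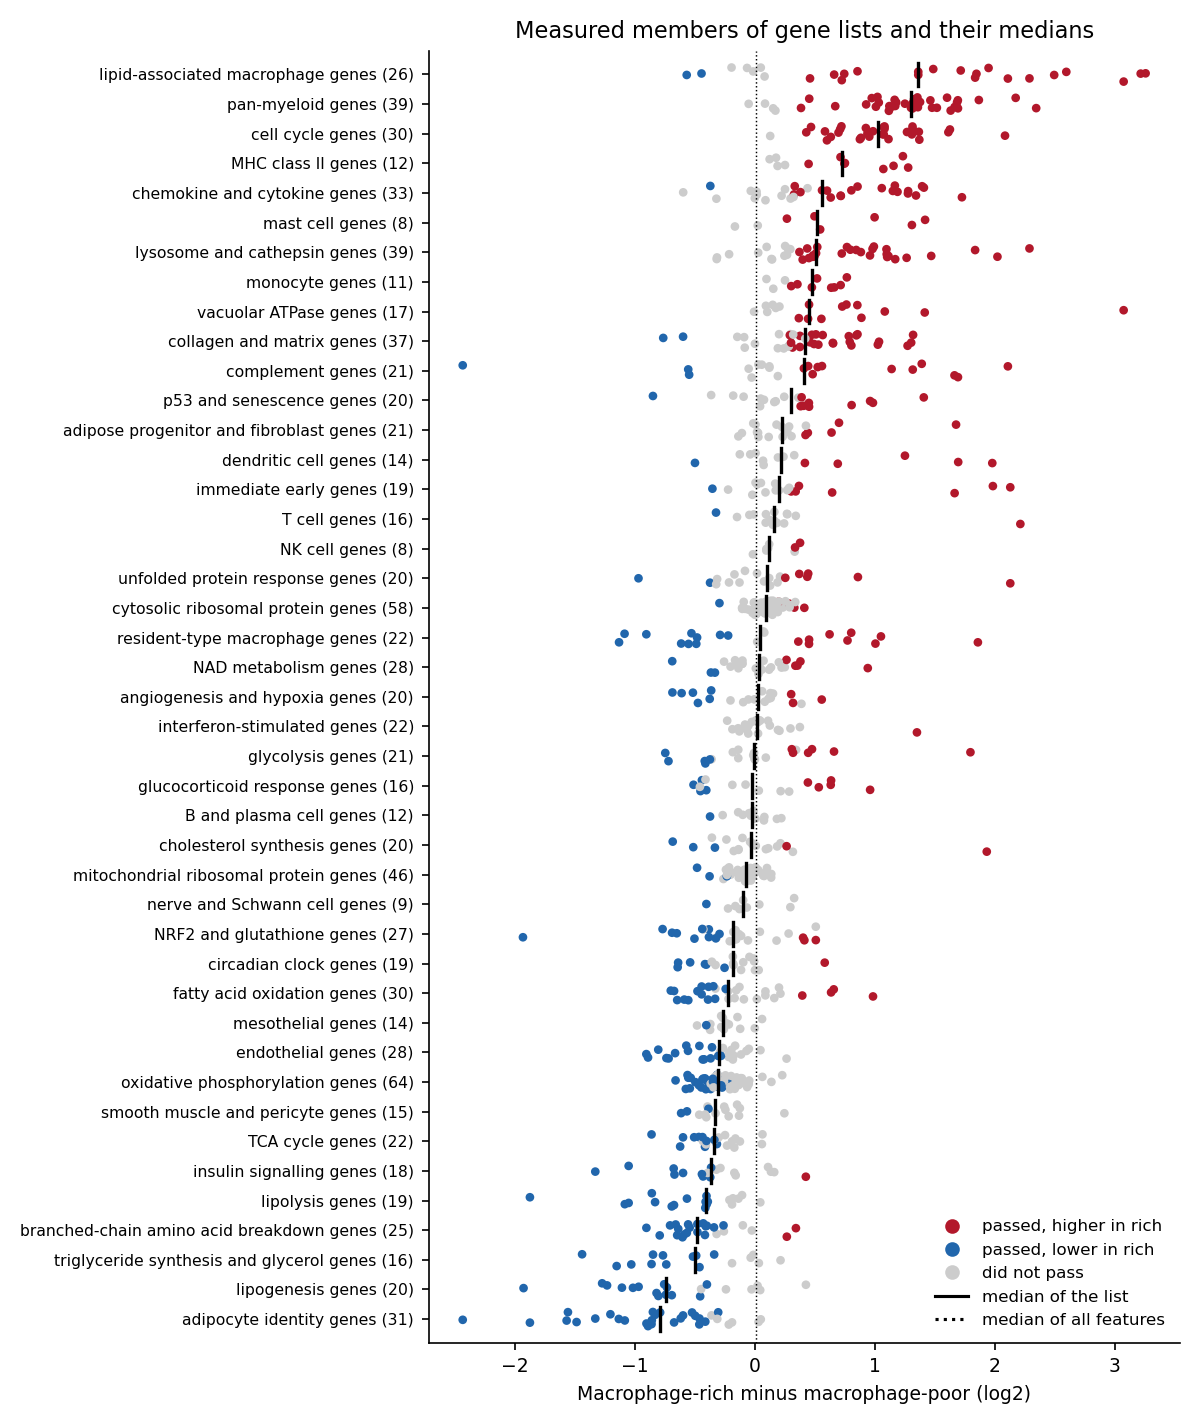
Each row is a gene list with 8 or more measured members (their number in brackets), each point a member and each bar the median of the list, and the horizontal axis is the macrophage-rich minus macrophage-poor difference in log2 units. Lipid-associated macrophage, pan-myeloid and cell cycle lists lie farthest to the right, with medians of 1.36, 1.30 and 1.02, and adipocyte identity and lipogenesis lists farthest to the left, with -0.79 and -0.74.

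Fat cell genes were lower. Of 31 measured adipocyte identity genes 25 were lower and 0 higher, with a median difference of -0.79, and the mean of the list was -0.42 ± 0.10 (SD, n = 8) in the rich and 0.38 ± 0.06 in the poor class. Adipoq, the hormone adiponectin, gave -0.66, -0.33 and -0.14 in the rich and 0.51, 0.69 and 1.29 in the poor class (7 poor fat pads, without Ctrl NR 115; difference -1.14, SE 0.113, limma adjusted p = 2.10e-07). Adrb3 gave -1.73, -1.38 and -0.996 against 0.04, 0.49 and 1.12 (difference -1.88, SE 0.144, limma adjusted p = 4.33e-09). Retn, the hormone resistin, differed by -1.49 (SE 0.249, 6 rich fat pads, without No NR 90 and Ctrl NR 117) and Rbp4, the retinol carrier, by -1.56 (SE 0.114). None of the 4 genes overlapped between the classes. Plin1, the coat protein of lipid droplets, differed by -0.86 (SE 0.0935) and Pparg, the main transcription factor of fat cells, by -0.46 (SE 0.0946, limma adjusted p = 0.000926). Lep, leptin, stood at -0.22 (SE 0.169, 95% interval -0.57 to 0.13, limma adjusted p = 0.417), and Lpl, lipoprotein lipase, at -0.36 (SE 0.172, limma adjusted p = 0.150, 7 poor fat pads). Under median centring over all spots Pparg stood at 0.174, 2 members of the list were lower, and the list median lay -0.389 from that of all features. Centred on the measured features 15 were lower.

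Of 20 lipogenic genes 14 were lower and 0 higher (median -0.74). Under median centring over all spots 0 were lower, and centred on the measured features 10 were. Thrsp, an activator of lipogenesis, gave -1.07, -0.80 and -0.48 against 0.43, 1.07 and 1.97, without overlap (difference -1.93, SE 0.166, limma adjusted p = 1.78e-08). Scd1, the desaturase, differed by -1.27 (SE 0.172), Srebf1, the factor that drives lipogenesis, by -0.73 (SE 0.162) and Fasn, fatty acid synthase, by -0.69 (SE 0.170, limma adjusted p = 0.00459). Fasn and Srebf1 overlapped between the classes. Triglyceride and glycerol genes were lower for 11 of 16 members and higher for 0 (median -0.50). Pck1, which serves the making of glycerol phosphate in fat, gave -1.46, -0.83 and -0.28 against 0.03, 0.54 and 1.29 (difference -1.44, SE 0.165), and Gpat3, a glycerol-phosphate acyltransferase, differed by -1.15 (SE 0.109). Of 20 cholesterol synthesis genes 2 were higher and 3 lower (median -0.04). The largest difference was that of Srebf2, the main factor of the pathway, at 1.93 (SE 0.131), but its second probe gave 0.15. Sc5d, a late enzyme of the pathway, differed by -0.69 (SE 0.108).

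Lipolysis genes were lower for 13 of 19 members and higher for 0 (median -0.41). Beside Adrb3 the largest difference was that of Cidec, a droplet protein (-1.08, SE 0.131, 7 poor fat pads, without Ctrl NR 115). Insulin signalling genes gave 1 higher and 9 lower of 18 (median -0.37), with Pde3b, the phosphodiesterase through which insulin restrains lipolysis, at -1.05 (SE 0.0888, limma adjusted p = 1.30e-08). Slc2a4, the insulin-responsive glucose transporter, gave -1.09, -0.82 and -0.37 in the rich and -0.04, 0.59 and 1.05 in the poor class, without overlap (difference -1.33, SE 0.134, limma adjusted p = 1.65e-07). Glycolysis genes went both ways, 6 higher and 5 lower of 21 (median -0.01), from Hk3, a hexokinase of myeloid cells (1.80, SE 0.154), to Ldhb, a lactate dehydrogenase chain (-0.75, SE 0.0985). With median centring over all spots 3 glycolysis genes were higher and 0 lower, and the list median lay 0.345 above that of all features.

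Antioxidant and glutathione genes gave 3 higher and 10 lower of 27 (median -0.18). Beside Gsta3 the largest difference was that of Mgst1, a membrane-bound glutathione transferase (-0.77, SE 0.112, 7 poor fat pads, without No NR 78). Under median centring over all spots the list median lay 0.0297 above that of all features and Mgst1 stood at 0.129.

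Among further leading lower genes were Fam13a (-1.74, SE 0.127), Ces1d, a triglyceride hydrolase (-1.55, SE 0.133), Acsm3, an acyl-CoA synthetase (-1.52, SE 0.138), and Angptl8, an insulin-induced regulator of lipoprotein lipase (-1.40, SE 0.223). All 4 separated the classes. Acsm3 was well above background on 4 rich and 8 poor arrays. Among further leading higher genes were Adam8, a shedding protease (2.98, SE 0.197), Rgs1, a regulator of G protein signals (2.76, SE 0.185), and Arhgap25, a Rac regulator of blood cells (2.68, SE 0.163). Cd300c2, an immune receptor, differed by 2.49 (SE 0.207), and Blnk, an adaptor of B cell receptor signalling also found in macrophages, by 2.46 (SE 0.207). Zranb3, a DNA repair translocase, differed by 2.85 (SE 0.162) with its brightest probe and by 0.78 with its second. These 6 separated the classes as well.

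Mitochondrial genes were lower with loess, and this depended on the scaling. Of 64 oxidative phosphorylation genes 32 were lower and 0 higher, with a median of -0.30. The largest differences were those of the cytochrome oxidase subunits Cox8a (-0.66, SE 0.129, 7 fat pads per class, without Ctrl NR 117 and Ctrl NR 115) and Cox8b (-0.58, SE 0.118). Lower members numbered 20 with the authors' deposited values, 45 with the processed signals and 0 with either median centring, where the list median lay 0.0576 and 0.0526 above that of all features, and Cox8a stood at 0.0824 over all spots. The TCA cycle list gave 10 lower and 0 higher of 22 (median -0.34), with Pcx, pyruvate carboxylase, at -0.86 (SE 0.112) and Pdhx, a subunit of pyruvate dehydrogenase, at -0.62 (SE 0.113). Fatty acid oxidation gave 4 higher and 13 lower of 30 (median -0.22), and its median came to the level of all features under median centring (0.00406 over all spots, with 2 higher and 0 lower). Ppara, a nuclear receptor that drives this pathway, differed by -0.70 (SE 0.124) and Pdk4, the kinase that restrains pyruvate dehydrogenase, by 0.63 (SE 0.149). Ucp3 differed by 0.98 (SE 0.163) with its brightest probe and by -0.77 with its other one, so no direction is given for it.

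Genes that break down branched-chain amino acids, a pathway of mature fat cells, were lower for 19 of 25 members and higher for 2, with a median of -0.48. Aldh6a1, of the valine branch, gave -1.32, -0.80 and -0.61 in the rich and -0.13, 0.05 and 0.28 in the poor class (difference -0.91, SE 0.0969, limma adjusted p = 3.75e-07), and Bckdhb, a subunit of the rate-limiting dehydrogenase, differed by -0.79 (SE 0.0908). Neither overlapped. Among the higher members, named after its value was seen, was Bcat1 (0.34), a transaminase. Over 40 other settings the list median lay between -0.58 and -0.31 relative to all features. Under median centring over all spots, however, 0 members were lower, and the list median itself was -0.0555. There Aldh6a1 (-0.326, limma adjusted p = 0.572) and Bckdhb (-0.19, limma adjusted p = 0.723) did not pass. Centred on the measured features 12 members of this list were lower, 7 of the lipolysis list, 7 of the triglyceride list, 4 of the insulin signalling list, 3 of the glutathione list, 3 of the TCA cycle list and 4 of the fatty acid oxidation list. Over all spots 1 lipolysis and 1 glutathione gene were lower, and 0 of the triglyceride, insulin signalling, TCA cycle and fatty acid oxidation lists.

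Of 28 endothelial genes 15 were lower and 0 higher (median -0.30). Lyve1 and the fatty acid carrier Fabp4 (-0.89, SE 0.119), which fat cells also make, showed the largest differences. The pan-endothelial genes Cdh5 (-0.29, SE 0.164, limma adjusted p = 0.238) and Pecam1 (-0.22, SE 0.101, limma adjusted p = 0.139) did not pass. Of 15 smooth muscle and pericyte genes 3 were lower and 0 higher, with Acta2 at -0.62 (SE 0.130) and Higd1b at -0.57 (SE 0.105). Under median centring over all spots 0 endothelial and 0 smooth muscle genes were lower, centred on the measured features 5 and 1, and over all spots Acta2 stood at 0.0271.

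Of 37 collagen and matrix genes 23 were higher and 2 lower (median 0.42), and 9 were higher and 0 lower with median centring over all spots. Col1a1 gave -0.80, -0.12 and 0.37 in the rich and -2.003, -1.30 and -1.12 in the poor class (difference 1.30, SE 0.145, limma adjusted p = 6.04e-07), and Col3a1 differed by 1.32 (SE 0.161). Both fibrillar collagen genes separated the classes. The lower members, named after their values were seen, were Ccn2 (-0.76) and Timp3 (-0.60). Progenitor and fibroblast genes gave 5 higher and 0 lower of 21 (median 0.22), with 1 higher under median centring over all spots. Lum, the collagen-binding lumican, differed by 1.68 (SE 0.179, limma adjusted p = 3.54e-07) and the progenitor marker Pdgfra by 0.70 (SE 0.128), while Dcn, decorin, stood at 0.23 (SE 0.158, limma adjusted p = 0.348). Mesothelial genes, from the lining of the pad, gave 0 higher and 1 lower of 14 (Efna5, -0.41), with Krt19 at -0.48 and Msln at -0.28, neither past the test.

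**Figure D4:**
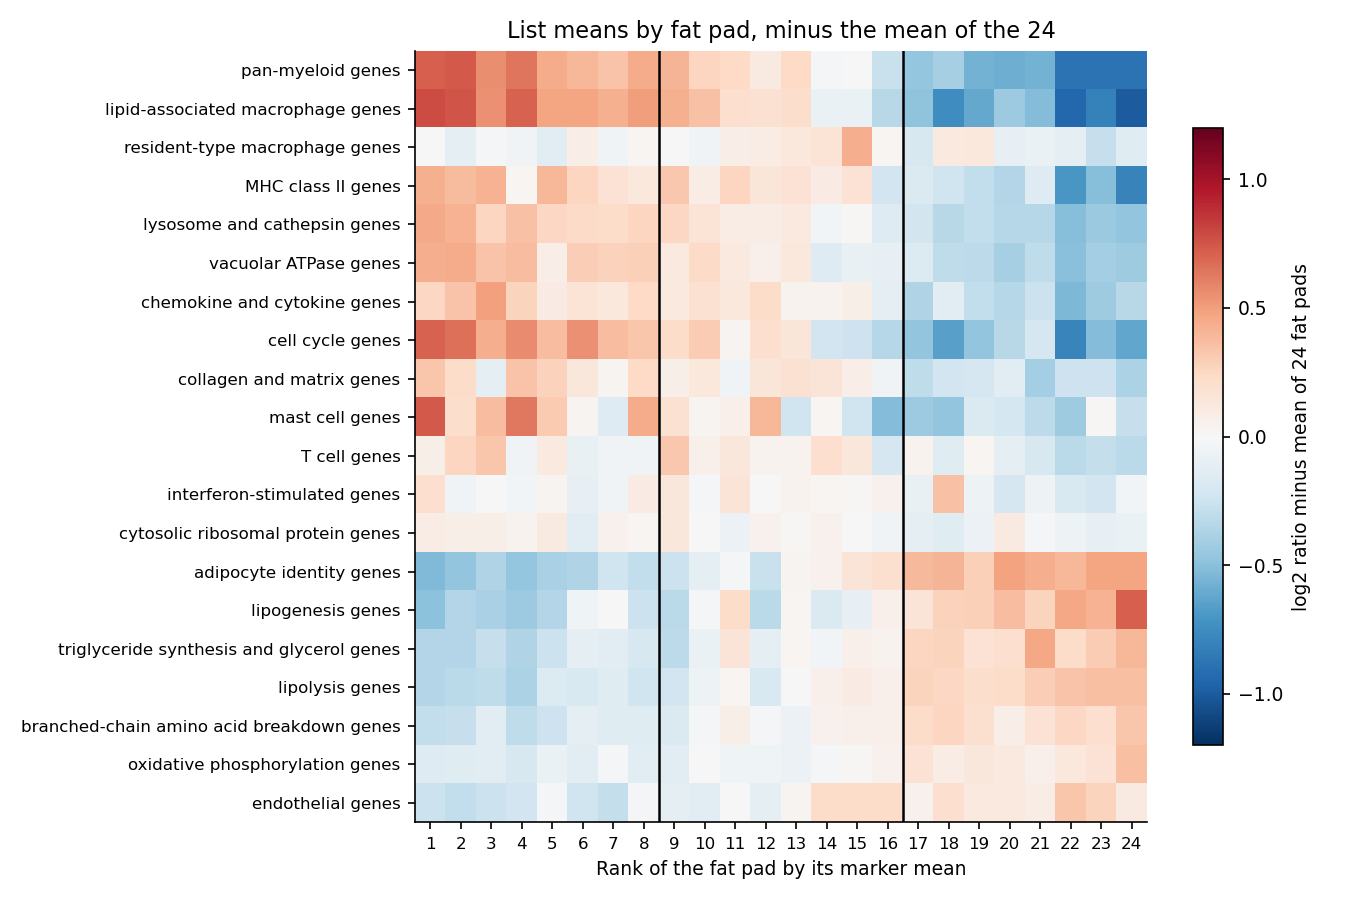
Columns are the 24 fat pads in order of marker mean, rows are gene lists, and colour is the mean log2 ratio of the measured members minus the mean of that list over all 24 fat pads, with vertical lines at the class limits. Myeloid, lysosome and cell cycle lists pass from high to low along the ranking and fat cell and lipid lists from low to high.

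Genes of neighbouring tissue were measured as well. Of 6 epididymis and testis genes 0 were higher and 1 lower (Spink2, -0.31, named after its value was seen), and the sperm genes Prm1 (-0.84, SE 0.627) and Tnp1 (-0.68, SE 0.370) did not pass. Prm1 ran from -3.75 to -0.12 in the rich and from -3.09 to 1.80 in the poor class. Skeletal muscle genes gave 1 higher and 0 lower of 4 (Pvalb, 1.01, SE 0.174, with Acta1 at -0.55), and nerve and Schwann cell genes 0 higher and 1 lower of 9 (S100b, -0.41, with Pmp22 at 0.33). Erythroid genes were lower for 3 of 5 members, with Hba-a1 at -0.80 (SE 0.121) and Hbb-bt at -0.72 (SE 0.146), whose near-identical copies a probe may not tell apart. Under median centring over all spots 0 were lower, with Hba-a1 at -0.0776 and Hbb-bt at -0.0487. Centred on the measured features 2 were lower, but not Hba-a1 (limma adjusted p = 0.071) or Hbb-bt (limma adjusted p = 0.106). The part of blood or neighbouring tissue in the other differences was not tested.

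Within Ctrl NR mice (3 rich, 4 poor) limma called 1224 features higher and 573 lower, and within No NR mice (5 rich, 4 poor) 1889 and 1005. The number of mice differs between these fits, so the counts are not comparable. Pan-myeloid genes had a median difference of 1.35 with NR (Ctrl NR) and 1.06 without it (No NR), lipid-associated macrophage genes 1.47 and 1.26, MHC class II genes 0.99 and 0.44, and adipocyte identity genes -0.84 and -0.70. The test of the difference itself, a diet by class interaction in limma, called 0 of 21046 features (0%), with a lowest adjusted p of 0.875, while 1122 (5.33%) had an unadjusted p under 0.05. For Gpnmb the differences were 3.75 and 2.81 in the same order, and for Cyp2e1 -3.77 and -3.22.

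The 8 fat pads between had no part in the comparison of the classes, and held 5 Ctrl NR and 3 No NR mice. In them each feature was fitted on the marker mean, the measure that also ranked the arrays, so the slopes describe how genes went with the markers in fat pads outside the comparison and are no independent support for it. Of the 2715 features higher in the rich class 90.3% had a positive slope, against 50.3% of all features, and of the 1834 lower ones 86.8% had a negative slope, against 49.7% of all. The slope passed in limma for 90 features (0.428%), 82 upward (0.39%) and 8 downward (0.038%), and 1869 (8.88%) had an unadjusted p under 0.05. Of the 90, 82 were among the higher and 5 among the lower features of the comparison, and 0 had the opposite direction. The slope per unit of marker mean was 1.30 for Trem2 (SE 0.132, limma adjusted p = 0.00571), 1.36 for Lum (SE 0.175, limma adjusted p = 0.0123) and 1.07 for Gpnmb (SE 0.184, limma adjusted p = 0.0324). It was -3.45 for Cyp2e1 (SE 0.438, limma adjusted p = 0.0143) and -2.20 for Cfd (SE 0.469, limma adjusted p = 0.0917).

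These slope calls were fragile. With diet as a term 1 upward and 2 downward slopes passed, and with the authors' deposited values 49 and 4. Leaving out 1 fat pad gave between 5 and 117 upward and between 1 and 11 downward slopes. With Ctrl NR 104 left out 5 upward slopes passed, and leaving out No NR 110 or No NR 101 instead gave 14 or 17. Omission of Ctrl NR 97 gave 36, and that of Ctrl NR 84 gave 40. The downward slopes fell to 1 when No NR 110, Ctrl NR 84 or Ctrl NR 97 was dropped, to 3 when No NR 101 was and to 5 when No NR 70 was.

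**Figure D5:**
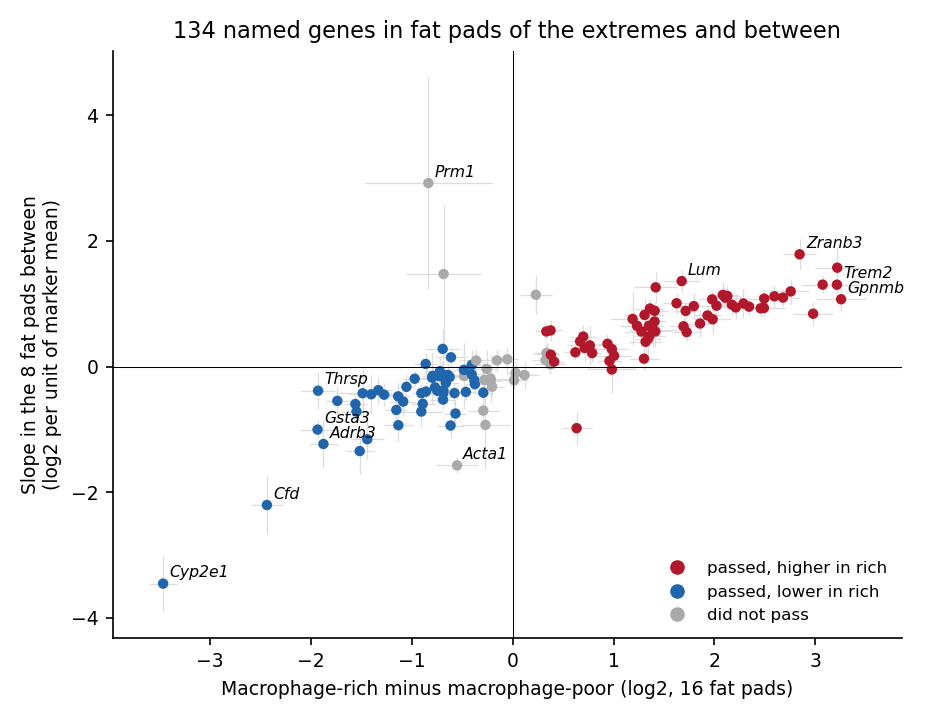
The horizontal axis is the macrophage-rich minus macrophage-poor difference over 16 fat pads, and the vertical axis the slope on the marker mean in the 8 fat pads between, in log2 per unit, for the 134 genes named by the rule, with grey lines for standard errors and colour for the test over the 16. The genes spread from the lower left, with Cyp2e1 at -3.46 and -3.45, to the upper right, with Trem2 at 3.21 and 1.30.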

How the data were processed

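RNA of 24 mice was measured on 2-colour Agilent arrays, with 200 ng of RNA as input. The authors quantified the scans with Agilent Feature Extraction 10.7.3.1, as the file headers state. The deposited scanner files hold the intensity of each spot and its background in both channels, as medians over its pixels. The deposited value table holds log2 values with equal column medians. Their correlation with the Cy5 signal was 0.99 or more on every array and with the log ratio 0.18 or less, and the method behind them is not given in the sources used here.

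Arrays were ranked by the deposited log2 values of the markers. For all tests, intensities were background-corrected by normexp (offset 50) and loess-normalised within arrays with limma 3.58.1 in R 4.3.3, as log2 of Cy5 over Cy3. Outlier spots (0.112% of values) were left out. A probe was kept if it was well above background in Cy5 on at least 6 arrays of either diet. Of 55681 probes 27235 matched 1 symbol, and the brightest kept probe stood for a gene, which gave 13009 named genes and 8037 unnamed probes. limma's moderated test compared the classes, with Benjamini-Hochberg adjustment over all 21046 features. Lists were only counted. The procedure was tested on simulated data.

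Named are, per direction, the 12 genes with the largest difference that passed, did not overlap and had probes of 1 sign, the 2 largest members of each list, and a set of genes of general interest. A few genes that this rule takes are not reported here. Members and lists were chosen with earlier results of these data known. Alternatives changed scale, normalization, background, filter, probe rule, covariates, ranking, class size and the arrays included.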

Additional observations from a re-analysis of the deposited data

Results flagged for a closer look

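In each class of 8 fat pads the highest or lowest value of the 134 named genes, the 8 array measures and the marker mean was compared with the rest, over 286 groups, and 19 values stood apart. Chance flags about 1 in 20 groups. Values are log2 ratios. Among macrophage-rich fat pads, Ctrl NR 88 had the lowest value of Retn (-1.58, the nearest other being -0.69) and the highest value of Lgmn (0.82, the nearest other being 0.60). No NR 114 had the highest value of Ucp3 (1.64, the nearest other being 0.49). Ctrl NR 64 had the lowest value of Lum (-0.51, the nearest other being 0.215), the highest value of Cdkn1a (0.91, the nearest other being 0.51), the lowest value of Mrps15 (-1.11, the nearest other being -0.52), the highest value of Pparg (0.35, the nearest other being -0.0506) and the lowest value of Cd38 (-0.83, the nearest other being -0.24). Ctrl NR 117 had the lowest value of Col1a1 (-0.80, the nearest other being -0.17). No NR 94 had the lowest value of Sirt1 (-0.64, the nearest other being -0.11). Among macrophage-poor fat pads, No NR 118 had the lowest value of Ces1d (0.00949, the nearest other being 0.44). Ctrl NR 77 had the highest value of Lat (0.40, the nearest other being -0.0331). Ctrl NR 115 had the lowest value of Lum (-2.34, the nearest other being -1.58), the highest value of Egln3 (1.24, the nearest other being 0.10) and the highest value of Fasn (1.28, the nearest other being 0.33). Ctrl NR 75 had the lowest value of Hk3 (-1.90, the nearest other being -1.27) and the lowest value of Lep (-0.47, the nearest other being 0.0782). Of the array measures, the share of Cy3 spots well above background was lowest on the macrophage-rich array Ctrl NR 117 (47.2%, the nearest other being 51.4%), and the macrophage-poor array Ctrl NR 115 had 2 saturated Cy5 spots where the others of its class had 0. No test linked these values to the differences between the classes.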

How the results depend on the processing

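Of 134 named genes, 59 kept both direction and test outcome, passed or not passed, under all 40 other settings that gave them a value. Among the 59 are genes that passed under none of them, such as Krt19 and Sirt1. Of the 134, 110 never changed direction. Of these settings 7 were rankings that returned the same classes and could change nothing. Of 47 lists, 7 moved by less than the spread between fat pads throughout and 32 kept their sign. Centring on the measured features and the added marker probe were chosen after seeing the data. The cause of a change was not tested. Leaving out 1 of the 16 fat pads gave between 2426 (without Ctrl NR 88) and 3003 (without Ctrl NR 64) higher and between 1548 (without Ctrl NR 75) and 1987 lower calls. Counts moved by over 1.5 times under median centring over all spots (1040 higher and 11 lower), centring on the measured features (1185 lower) and the processed signals (3141 lower), and in Ctrl NR mice alone (1224 and 573) and No NR mice alone (1005 lower). Slopes in the fat pads between numbered 1 and 2 with diet as a term and 49 and 4 with the authors' deposited values, and from 5 to 117 and from 1 to 11 with 1 fat pad left out. No paired analysis was possible because the classes were set by expression and the diets share no replicate numbers. Spots near background bound only low levels, and dim members were not measured.

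List medians relative to that of all features, which differ by 0.01 from the medians in the report, moved beyond the spread as follows. Under median centring they were 0.185 for resident-type macrophage, 0.98 for MHC class II, -0.39 (over all spots) and -0.37 (on the measured features) for adipocyte identity, -0.44 for lipogenesis, -0.23 for triglyceride synthesis and glycerol, -0.26 for lipolysis, 0.0576 (over all spots) and 0.0526 (on the measured features) for oxidative phosphorylation, -0.0765 (over all spots) and -0.0766 (on the measured features) for TCA cycle, -0.34 for branched-chain amino acid breakdown, 0.00406 (over all spots) and 0.00175 (on the measured features) for fatty acid oxidation, -0.15 for endothelial, 0.66 for collagen and matrix, -0.21 for nerve and Schwann cell, 0.655 for lysosome and cathepsin, 0.74 for vacuolar ATPase, 0.695 (over all spots) and 0.68 (on the measured features) for complement, 0.345 for glycolysis, -0.17 for insulin signalling, 0.0297 for NRF2 and glutathione, 0.25 for unfolded protein response, 0.20 for glucocorticoid response, 0.12 for NAD metabolism, 0.54 for cytosolic ribosomal protein and 0.0960 (over all spots) and 0.0959 (on the measured features) for mitochondrial ribosomal protein. With the authors' deposited values they were 1.58 for lipid-associated macrophage, 0.62 for monocyte, 0.93 for MHC class II, -0.56 for adipocyte identity, -0.15 for oxidative phosphorylation, -0.24 for TCA cycle, 0.60 for lysosome and cathepsin, 0.55 for vacuolar ATPase, 0.135 for glycolysis and 0.32 for cytosolic ribosomal protein. Without background subtraction they were 1.58 for lipid-associated macrophage, 0.325 for dendritic cell, 1.23 for cell cycle, -0.28 for circadian clock and 0.18 for cytosolic ribosomal protein. With the processed signals they were 1.49 for pan-myeloid, 1.65 for lipid-associated macrophage, 0.66 for monocyte, 0.54 for dendritic cell, 0.33 for NK cell, 1.02 for mast cell, 0.63 for neutrophil and eosinophil, -0.565 for lipolysis, -0.58 for branched-chain amino acid breakdown, 1.75 for cell cycle, 0.78 for chemokine and cytokine, -0.29 for circadian clock and 0.19 for cytosolic ribosomal protein. Without the filter on dim probes they were 0.0737 for neutrophil and eosinophil, -0.17 for erythroid and 0.33 for chemokine and cytokine. With features well above background on all 16 arrays they were 0.79 for lipid-associated macrophage, 1.30 for cell cycle and 0.16 for p53 and senescence. With 6 against 6 fat pads the value was -0.265 for circadian clock. With 12 against 12 they were 0.96 for pan-myeloid, 1.05 for lipid-associated macrophage, 0.29 for monocyte, -0.61 for adipocyte identity, -0.515 for lipogenesis, -0.37 for triglyceride synthesis and glycerol, -0.30 for lipolysis, -0.20 for oxidative phosphorylation, -0.31 for branched-chain amino acid breakdown, 0.79 for cell cycle, 0.40 for lysosome and cathepsin, 0.30 for chemokine and cytokine, 0.21 for complement and 0.23 for p53 and senescence. In Ctrl NR mice alone they were 0.99 for MHC class II, 0.36 for T cell, 0.25 for NK cell, 0.54 for neutrophil and eosinophil, -0.52 for lipolysis, -0.47 for TCA cycle, 0.0227 for nerve and Schwann cell, 0.48 for skeletal muscle, 0.645 for lysosome and cathepsin, -0.0959 for glycolysis, 0.31 for immediate early, 0.0804 for glucocorticoid response and 0.185 for cytosolic ribosomal protein. In No NR mice alone they were 1.04 for pan-myeloid, -0.0775 for resident-type macrophage, 0.28 for monocyte, 0.42 for MHC class II, -0.72 for adipocyte identity, -0.57 for lipogenesis, 0.85 for cell cycle, 0.34 for chemokine and cytokine, 0.24 for complement, -0.27 for insulin signalling, 0.0896 for immediate early, 0.20 for p53 and senescence and -0.0574 for hypoxia. With 1 fat pad left out the p53 and senescence median lay between 0.237 (without Ctrl NR 75) and 0.323 (without Ctrl NR 77). With 1 fat pad left out the skeletal muscle median lay between -0.206 (without Ctrl NR 75) and 0.267 (without No NR 74).

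Single genes changed direction as follows. Under median centring over all spots the difference was 0.28 for Xbp1, 0.0824 for Cox8a, 0.0271 for Acta2, 0.13 for Mgst1, 0.00419 for Tef, 0.0923 for Mrps34, 0.12 for Mrps15, 0.00969 for Epas1, 0.54 for Itgam, 0.38 for Lep, 0.17 for Pparg, 0.365 for Lpl, 0.22 for Cdh5, 0.0925 for Pecam1, 0.22 for Msln, 0.30 for Nampt, 0.14 for Cd38 and 0.28 for Nnmt. With the authors' deposited values it was -0.0700 for Csf1 and -0.10 for Kmo. Centred on the measured features it was 0.155 for Itgam, -0.0193 for Tnf, 0.0317 for Lpl and -0.21 for Kmo. Without background subtraction it was -0.0211 for Csf1. With the processed signals it was -0.0637 for Csf1. With the mean of all probes of a gene it was 0.38 for Itgam. With array weights it was -0.0510 for Kmo. With 6 against 6 fat pads it was 0.0910 for Prm1. With 12 against 12 it was 0.37 for Prm1, 0.0678 for Tnp1, -0.0237 for Csf1 and -0.0275 for Kmo. With the marker mean as a continuous term it was 0.000517 for Itgam and -0.0592 for Csf1. In Ctrl NR mice alone it was 0.0327 for Prm1. In No NR mice alone it was -0.10 for Dcn and -0.0714 for Kmo. With 1 fat pad left out Csf1 lay between -0.0624 and 0.0948. With 1 fat pad left out Kmo lay between -0.0148 and 0.0881.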

Other observations

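Some stress and early response genes passed, where 21.6% of all features did, unnamed probes included. Of 20 unfolded protein response genes 6 were higher and 2 lower (median 0.10). Atf3, a stress-induced transcription factor, gave 0.28, 0.64 and 0.81 in the macrophage-rich and -2.04, -1.38 and -1.07 in the macrophage-poor class, without overlap (difference 2.13, SE 0.143, limma adjusted p = 9.45e-10), whereas Asns, asparagine synthetase, gave -0.89, -0.79 and -0.76 against -0.35, 0.08 and 0.67 (difference -0.97, SE 0.113, limma adjusted p = 1.10e-06). Of 19 immediate early genes 7 were higher and 1 lower (median 0.20), and Egr2, a factor that alternatively activated macrophages also express, differed by 1.98 (SE 0.182, limma adjusted p = 4.20e-08). Of 20 p53 and senescence genes 9 were higher and 1 lower (median 0.30). Gdf15, a stress-induced cytokine, differed by 1.41 (SE 0.112) without overlap, and Cdkn1a, the cell cycle inhibitor p21, by 0.96 (SE 0.123, limma adjusted p = 4.16e-06). With median centring over all spots 2, 4 and 4 members of these 3 lists were higher.

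Of 28 NAD metabolism genes 5 were higher and 3 lower (median 0.04). These shares lie near those of all 13009 named genes, of which 2053 were higher and 1406 lower. Bst1, an NAD-cleaving enzyme of myeloid cells, differed by 0.94 (SE 0.0964) with its brightest probe and by 0.17 with its second, and Kyat3, a kynurenine transaminase, by -0.69 (SE 0.129). Nampt, the main enzyme of NAD salvage, stood at -0.15 (SE 0.124, limma adjusted p = 0.436), Cd38, which consumes NAD, at -0.20 (SE 0.121, limma adjusted p = 0.267), Nnmt, which methylates nicotinamide, at -0.26 (SE 0.103), Kmo, a kynurenine hydroxylase, at 0.03 (SE 0.0956) and Sirt1, an NAD-dependent deacetylase, at 0.12 (SE 0.147), and none of the 5 passed. Of 19 circadian clock genes 1 was higher and 6 lower (median -0.18), with Tef at -0.64 (SE 0.0968). Of 20 angiogenesis and hypoxia genes 3 were higher and 6 lower (median 0.03). Epas1 differed by -0.69 with its brightest probe and by -0.31 and 0.04 with its others, so it has no settled direction, and Egln3, a prolyl hydroxylase, differed by -0.61 (SE 0.163). Glucocorticoid response genes gave 5 higher and 4 lower of 16 (median -0.02). Cytosolic ribosomal protein genes gave 4 and 1 of 58 (median 0.09), with Rpl12 at 0.41. Of these 13 were higher with the authors' deposited values, 15 with the processed signals, 17 centred on the measured features and 0 with median centring over all spots. Mitochondrial ribosomal protein genes gave 0 and 3 of 46 (median -0.07), with Mrps34 at -0.48. Under median centring over all spots Tef and Mrps34 stood at 0.00419 and 0.0923.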
